A study of Drosophila melanogaster with 384 samples.

Results

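The genes described here are 10 genes of the Drosophila sex determination and dosage compensation pathways: Sxl, tra, tra2, dsx and fru, which form the sex determination hierarchy, and msl-2, msl-1, msl-3, mle and mof, which encode the proteins of the male-specific lethal (MSL) complex. They were chosen by name, as a list, and all 10 were matched to a row among the 14219 features of the count table, 11824 of which held at least 1 read. In flies, the number of X chromosomes sets whether Sxl protein is made. Sxl protein is made in females, where it directs the female splicing of tra and blocks msl-2, and Tra then acts with Tra2 on the splicing of dsx and fru. In males, msl-2 protein is made and the MSL complex binds the single X chromosome and raises the transcription of its genes.

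The data were single-cell RNA-seq libraries (SMART-Seq2, full-length cDNA amplified over 18 PCR cycles) of larval brain neuroblasts, which are neural stem cells, sorted by flow cytometry into 96-well plates. Every larva carried UAS-Dcr2, inscGal4 and UAS-CD8::GFP, each over a wild-type chromosome, so that the neuroblast driver insc made the GFP used for sorting and expressed the hairpin RNA in the same cells. The control pool (5 brains, plates 1 and 2) carried sh-mCherry (BL35785), a hairpin against a protein that flies lack. The tumor pool (3 brains, plates 3 and 4) carried sh-brat (BL34646), a hairpin against brat, whose loss lets neuroblast progeny revert to stem cells and overgrow. Larvae of both pools were wandering larvae of the last instar, 6 to 7 days old, reared at 29 °C, and cells came from the central brain with the ventral nerve cord removed. The labels do not give the sex of the larvae or the brain each cell came from. With 1 pool of brains per group, cells and plates are not replicates of a condition, no test between groups was possible, and differences between brains, in sex makeup among them, cannot be told apart from the effect of the hairpin.

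Of 96 wells per plate, 89 and 91 control cells and 93 and 92 tumor cells had at least 100000 reads and 1000 genes. The cells of each pool together held 262976815 and 204489558 reads. At an equal 100000 reads per cell, the median number of genes with a read was 5015 in control cells and 3166 in tumor cells. The RNAi target brat was 3.89-fold lower in the tumor pool, at 311.7 and 374.3 CPM (reads of the gene per 1000000 reads) on control plates 1 and 2 against 93.6 and 81.9 CPM on tumor plates 3 and 4. The type II neuroblast genes pnt, btd, tll and Sp1 summed to 287.4 CPM in control and 3218 CPM in tumor cells, and 83 and 74 cells of tumor plates 3 and 4 but 8 control cells had at least 5 reads of at least 3 of them; these are called type II-like below. Of the neuroblast markers, wor (3.13-fold) and klu (3.67-fold) were called higher by the rule given below, 2 of 8 measured genes, and none lower. The others went both ways without a call. grh (2.09-fold), dpn (1.67-fold) and insc (1.05-fold) were higher in the tumor pool, and pros (1.67-fold), ase (1.55-fold) and mira (1.09-fold) were lower. ase had a read in 88.9% of control and 34.6% of tumor cells at equal depth. The 5 glial markers summed to 630.0 and 510.3 CPM on the control plates and 340.8 and 416.5 CPM on the tumor plates, and none of the 4 measured was called: nrv2 was 2.57-fold lower in the tumor pool, and gcm, Eaat1 and loco were 4.31-fold, 1.64-fold and 1.48-fold higher. The defining glial gene repo was under 0.1 CPM in both pools, with a read in 6.11% of control and 2.70% of tumor cells at full depth. Of the 4 measured neuronal markers, elav (2.54-fold) and fne (5.99-fold) were called higher, and Syt1 (1.40-fold higher) and Syx1A (1.02-fold higher) were not called. The defining gene brp and nSyb were not measured. Both were lower in the tumor pool, brp at 0.62 and 0.03 CPM and nSyb at 3.32 and 0.66 CPM in control and tumor. brp had a read in 5% of control and 3.78% of tumor cells at full depth. The hemocyte and fat body markers each summed to under 1 CPM on every plate. These differences in gene number and cell type go with every comparison of the pools below, and their part in it was not tested.

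A feature was counted as measured when the mean of the 2 pools was at least 5 CPM, which 6450 features met, 9 of the members among them. The exception was dsx. A measured feature was called higher or lower when it differed at least 2-fold between the pools and between each of the 4 pairs of a tumor and a control plate. By that rule 6.90% of measured features were higher and 7.57% lower in the tumor pool, so a call of 1 member of 9 in a direction is near the background. Sxl was the single member called, as higher, and none was called lower. With fewer plate pairs to meet, 4 members were called higher without plate 2, where 930 measured features were, and 2 without plate 3 (597 features) or without plate 4 (606). Without plate 1 msl-2 was called lower, as were 598 features. By the pools alone, without the plates, 13.1% of measured features were at least 2-fold higher and 14.7% lower, and among the 9 measured members Sxl, mle, tra and fru were higher and msl-2 was lower. The log2 ratio of tumor over control had a median of 0.21 over the 10 members, 5 of which were above 0, and a median of -0.001 over all measured features.

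**Figure D1:**
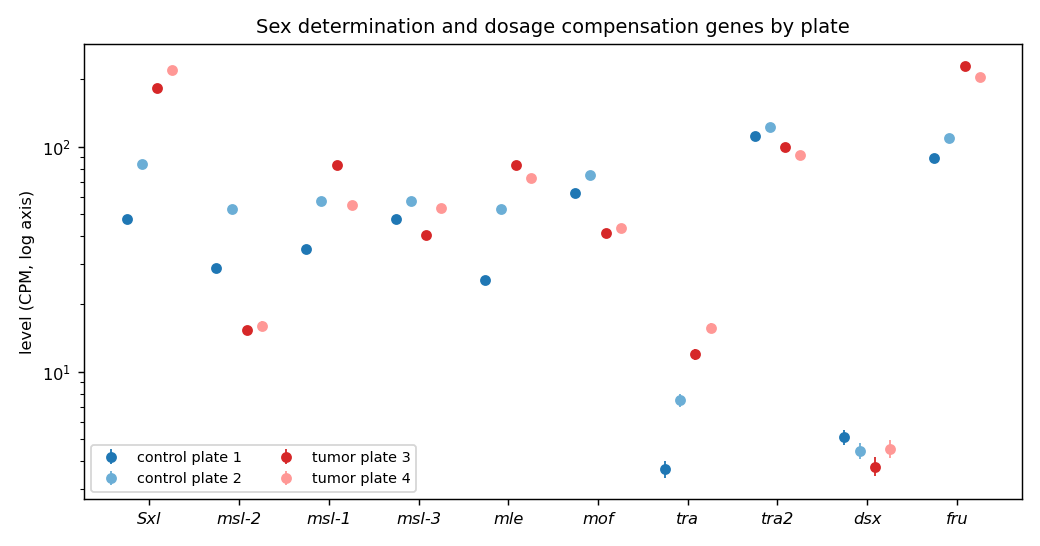
Level of each gene (CPM, log axis) on the 4 plates, with 95% Poisson intervals that cover counting error only. Both tumor plates lie above both control plates for Sxl, mle, tra and fru and below both for msl-2, mof and tra2, while the plates overlap for msl-1, msl-3 and dsx.

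Sxl (FBgn0264270, X:7074550-7098053, minus strand, dm6) encodes the RNA-binding protein at the top of the hierarchy. It was at 47.9 and 83.9 CPM on control plates 1 and 2 and at 181.7 and 218.3 CPM on tumor plates 3 and 4. Both tumor plates were above both control plates, and the 2 control plates differed from each other by 0.81 on the log2 scale. Pooled, control cells were at 65.8 CPM (95% Poisson interval 64.8 to 66.7) and tumor cells at 199.0 CPM (197.1 to 201.0), a 3.03-fold difference, with log2 ratios of the plate pairs from 1.12 to 2.19 (SD 0.49, n = 4 pairs that share plates). Sxl has 25 annotated transcripts, and a count per gene does not separate the female and male splice forms, so these levels do not show whether Sxl protein was made.

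At 100000 reads per cell, Sxl had a read in 86.1% of control cells (95% Clopper-Pearson interval 80.2 to 90.8), against 88.1% (82.6 to 92.4) of tumor cells. The plates were at 74.2% and 97.8% in control and 90.3% and 85.9% in tumor, which overlapped. The median control cell held 46.5 CPM and the median tumor cell 167.5 CPM. Without equal depth the shares were 96.7% and 94.1%. Sxl was also the member least tied to how many genes a cell gave: the Spearman correlation with genes per cell, over the 89 to 93 cells of a plate at equal depth, was between -0.06 and 0.08 on the 4 plates, and no gene of at least 20 CPM reached a mean correlation of 0.3 with it.

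tra and tra2 encode the splicing regulators that act after Sxl. tra (FBgn0003741, 3L:16590059-16591050, minus strand) was at 3.68 and 7.46 CPM on the control plates and 11.9 and 15.6 CPM on the tumor plates. The pools were at 5.56 and 13.7 CPM, a 2.46-fold difference with plate pairs from 0.68 to 2.08 on the log2 scale, and the control plates alone differed by 1.02. tra reads were found in similar shares of cells, 26.7% of control and 23.8% of tumor cells at equal depth, but among cells with any read at full depth the medians were 4.12 and 6.77 CPM on the control plates and 19.7 and 38.8 CPM on the tumor plates. Without equal depth the shares were 60.6% and 31.4%. The annotated exons of tra share 74 bases with l(3)73Ah on the other strand, and the 2 genes had a mean correlation of 0.07 over cells.

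tra2 (FBgn0003742, 2R:14602004-14604337, minus strand), whose protein is made in both sexes, differed least in level among the members whose plates did not overlap. It was at 111.5 and 122.2 CPM on the control plates and 99.4 and 91.8 CPM on the tumor plates, a log2 ratio of -0.29 (plate pairs -0.41 to -0.17). The share of cells with a read still went from 92.8% (88 to 96.1) in control to 65.9% (58.6 to 72.8) in tumor cells. The 200 features nearest to tra2 in level had median shares of 93.3% in control and 63.8% in tumor cells, so the lower share was that of other genes of its level. Per length of annotated exons, tra2 had the highest level of the 10 genes in both pools, 63.4 and 51.9 CPM per kb, and its plates did not overlap those of the next gene, msl-3.

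dsx and fru encode the transcription factors at the end of the hierarchy. dsx (FBgn0000504, 3R:7924323-7967408, minus strand) was the lowest member, at 5.11 and 4.43 CPM on the control plates and 3.79 and 4.54 CPM on the tumor plates, which overlapped. The mean of the 2 pools, at 4.77 and 4.14 CPM, was under the minimum of 5 CPM. It had a read in 28.9% of control and 24.3% of tumor cells at equal depth, against medians of 18.6% and 8.11% for the 200 features nearest in level, and at least 5 reads in 0% and 1.08% of cells. Some of its exonic bases are shared with lds on the other strand, a gene whose pooled levels were 78.2 and 106.7 CPM. lds was the gene most like dsx over cells, with correlations of 0.30, 0.27, 0.40 and 0.42 on plates 1 to 4. Nothing in the sources says that reads were counted by strand, so reads of dsx and lds cannot be told apart in that stretch.

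fru (FBgn0004652, 3R:18414273-18545586, minus strand) was at 89.2 and 108.9 CPM on the control plates and 228.8 and 204.6 CPM on the tumor plates. Both tumor plates were above both control plates. The pools were at 99 and 217.4 CPM, 2.20-fold apart, with plate pairs from 0.91 to 1.36 on the log2 scale (SD 0.19, n = 4), so it missed the call on the lowest of the 4 pairs. fru had a read in 95% of control and 84.3% of tumor cells, against 92.2% and 84.3% for the 200 features of its level. Its 15 annotated transcripts come from several promoters, of which one gives the sex-specific forms, and the count per gene does not separate them. The 3 genes most like fru over cells were svp (mean correlation 0.40), Myc (0.35) and phyl (0.34), each the mean of the 4 plates.

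Within the tumor pool, fru differed between the type II-like cells and the 28 other cells on both plates. Type II-like cells were at 249.6 and 236.2 CPM on plates 3 and 4, and the other cells, 10 and 18 in number, at 23.9 and 67.9 CPM. fru had a read in 92.8% (84.9 to 97.3) and 95.9% (88.6 to 99.2) of type II-like cells of the 2 plates at equal depth, and in 30.0% (6.67 to 65.3) and 27.8% (9.69 to 53.5) of the other cells. These other cells also gave fewer genes at equal depth, with medians of 2710.5 and 2610.5 against 3336 and 3309. In the control pool, where only 8 cells were type II-like, they were at 104.7 CPM and the rest at 98.7 CPM. tra was at 12.1 CPM in type II-like and 10 CPM in other cells of plate 3, and at 18.4 and 3.65 CPM on plate 4, a wider ratio than that of fru on that plate. For Sxl, the tumor cells outside the type II-like set were at 177.3 and 291.7 CPM on plates 3 and 4, and the type II-like cells at 182.2 and 201.4 CPM.

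**Figure D2:**
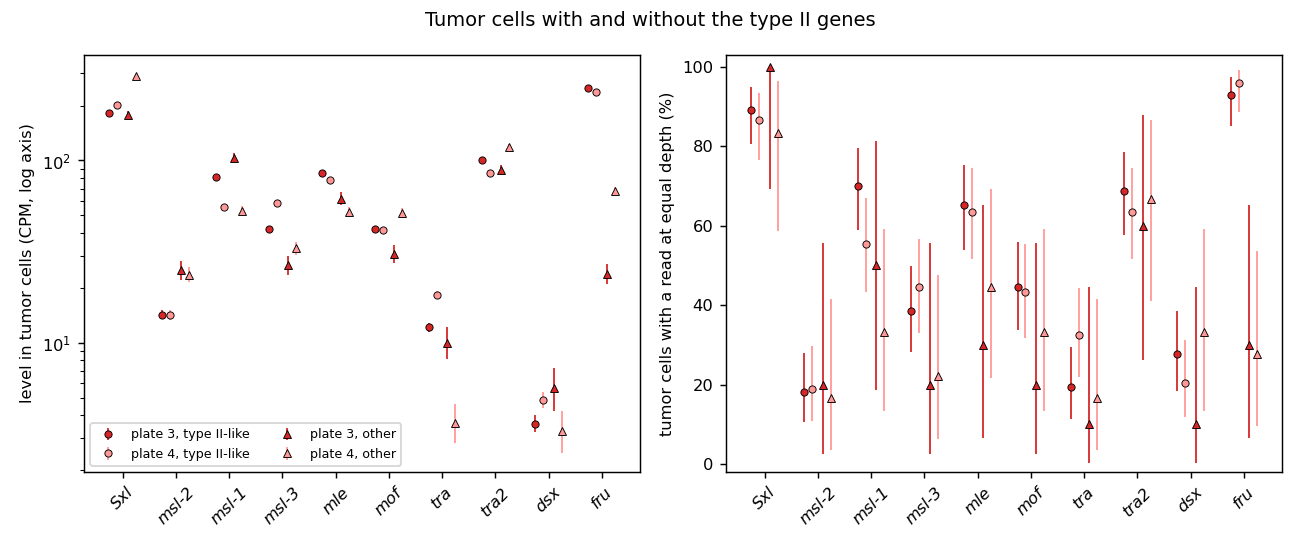
Level (left, CPM, log axis, 95% Poisson intervals) and share of cells with a read at 100000 reads per cell (right, 95% Clopper-Pearson intervals) of each gene in tumor cells that are type II-like (circles) or not (triangles), by plate. fru is higher in type II-like cells on both plates, 249.6 and 236.2 CPM against 23.9 and 67.9 CPM. For msl-2 the levels are 14.3 and 14.2 CPM against 25.0 and 23.6 CPM. The latter rest on only 2 of 10 and 3 of 18 cells with a read. The msl-2 shares are alike, 18.1% and 18.9% of type II-like cells against 20% and 16.7% of the other cells.

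Of the genes of the MSL complex, msl-2 (FBgn0005616, 2L:3462218-3466112, minus strand) encodes the RING finger subunit whose absence keeps the complex from forming in females. It was at 28.9 and 53.1 CPM on control plates 1 and 2 and at 15.3 and 16 CPM on tumor plates 3 and 4. The tumor plates were below both control plates and close to each other, whereas the control plates differed by 0.88 on the log2 scale. The pools were at 41 CPM (40.2 to 41.7) and 15.6 CPM (15.0 to 16.1), 2.63-fold lower in tumor cells, with plate pairs from -1.80 to -0.86, so that the pair of plates 1 and 3 or 4 kept it from being called. msl-2 had a read in 70.0% of control cells (62.7 to 76.6) and in 18.4% of tumor cells (13.1 to 24.7) at equal depth. The plates were at 57.3% and 82.4% in control and at 18.3% and 18.5% in tumor.

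Among cells with any msl-2 read at full depth, the medians were 33.1 and 45.3 CPM on the control plates and 30.8 and 59.6 CPM on the tumor plates, which enclosed those of the control. The 200 features nearest to msl-2 in level had median shares of 73.9% in control and 20.0% in tumor cells, so msl-2 was read in about as many cells as other genes of its level in each pool. Unlike Sxl, msl-2 followed the number of genes per cell, with correlations from 0.27 to 0.44 on the 4 plates. The genes most like it over cells were CG31550 (0.31), TM9SF3 (0.30) and insb (0.30).

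The other 4 genes of the complex did not move together. mle (FBgn0002774, 2R:5974857-5980778, minus strand), an RNA helicase that remodels the roX RNAs, was at 25.5 and 52.6 CPM on the control plates and 82.8 and 72.9 CPM on the tumor plates. Its pools were 2.00-fold apart, higher in tumor, with plate pairs from 0.47 to 1.70 on the log2 scale, and the 2 control plates differed by 1.04. msl-1 (FBgn0005617, 2L:18683720-18688800, minus strand), the scaffold subunit, was at 35.2 and 57.6 CPM against 83.4 and 54.9 CPM, with overlapping plates and a log2 ratio of 0.59 (-0.07 to 1.25). msl-3 (FBgn0002775, 3L:7123213-7125533, minus strand), the chromodomain subunit, was at 47.9 and 57.4 CPM against 40.5 and 53.6 CPM, also overlapping, with a log2 ratio of -0.17 (-0.50 to 0.16). mof (FBgn0014340, X:5873840-5876853, minus strand), the acetyltransferase that marks histone H4 and serves a second complex in both sexes, was at 62.6 and 74.8 CPM against 41.2 and 43.4 CPM, a log2 ratio of -0.70 (-0.86 to -0.53, SD 0.15), lower on both tumor plates.

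Of these 4 genes, msl-3 and mof were read in fewer cells on both tumor plates than on either control plate at equal depth. msl-3 was at 68.5% and 89% on the control plates and 36.6% and 40.2% on the tumor plates, and mof at 79.8% and 87.9% against 41.9% and 41.3%. The plates overlapped for msl-1, at 65.2% and 86.8% against 67.7% and 51.1%. For mle both tumor plates, at 61.3% and 59.8%, were above control plate 1 at 57.3% and below plate 2 at 86.8%. The features nearest in level had median tumor shares of 42.7% for msl-3, 40.5% for mof, 54.6% for msl-1 and 57.3% for mle, against pooled tumor shares of 38.4%, 41.6%, 59.5% and 60.5%. All 5 genes of the complex had a read in 43.9% of control cells (36.5 to 51.5) and in 5.41% of tumor cells (2.62 to 9.72). The control plates were at 22.5% and 64.8%, far apart, and the tumor plates at 4.30% and 6.52%. The number of members with a read per cell had a median of 8 in control and 5 in tumor cells. Over all features, the median number with a read at this depth was 5015 in control and 3166 in tumor cells. The lower number is thus not particular to the members. No such background was taken for cells with a read of all 5 genes together.

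**Figure D3:**
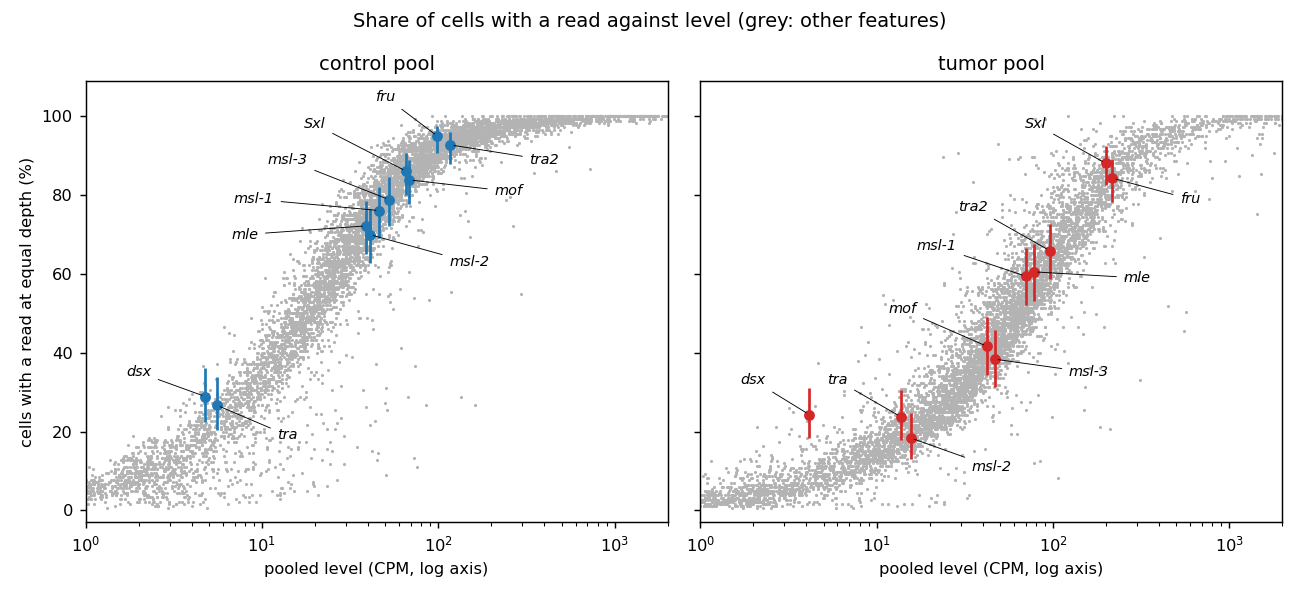
Share of cells with a read at 100000 reads per cell against the pooled level (CPM, log axis) in the control (left) and tumor (right) pools, with 95% Clopper-Pearson intervals; grey points are the other features. The members lie on the band of the other features in both pools except dsx, which in tumor cells has a share of 24.3% at 4.14 CPM.

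Per length of annotated exons, the order of levels differed between the pools. In control cells it ran tra2, msl-3, mof, msl-2, msl-1, mle, Sxl, tra, fru and dsx, from 63.4 to 0.52 CPM per kb, and neighbours had overlapping plates from msl-3 (26.7) to mof (22.8) and from msl-2 (10.7) to fru (5.37). In tumor cells it ran tra2, msl-3, Sxl, mle, tra, mof, msl-1, fru, msl-2 and dsx, from 51.9 to 0.45 CPM per kb. There Sxl, at 21.7 CPM per kb, overlapped msl-3 and lay above mle, neighbours from mle (16.8) to fru (11.8) overlapped, and msl-2, at 4.06 CPM per kb, overlapped neither neighbour. Exons used in few transcripts lengthen Sxl (9192 annotated exonic bases) and fru (18433), which lowers their values on this scale.

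Whether the values of single cells fell into 2 classes was read from histograms of log2(CPM + 1) in bins of 1, smoothed over 3 bins. A gene counted as split when a valley at or under 50% of the lower peak parted the cells with at least 10% on each side. In the control pool 4 of the 10 members were split (msl-2, msl-1, msl-3 and mle), against 28.6% of measured features. When every cell was thinned to 100000 reads, 6 members and 60.5% of measured features were split. In the tumor pool 9 of 10 were split, all but dsx, against 77.6% of measured features. Of the 200 features nearest in level to each member, the share that was split in control cells was 58.5% for msl-2, 54% for msl-1, 47.5% for msl-3 and 60% for mle. For the members not split there it was 44% (Sxl), 47% (mof), 10% (fru), 3.5% (tra and dsx) and 2.5% (tra2). In tumor cells it was 67% for tra, 74% for msl-2, 84.5% to 97.5% for the other 7 split members and 3% for dsx, which was not split. In the tumor pool, cells without a read made up 42.3% of the lower class for Sxl and 57.7% for fru. For the other split members they made up 76.7% (msl-3) to 94.1% (tra), with 90.1% for msl-2.

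msl-2 and msl-3 were split on all 4 plates. At the valley of each pool, the upper msl-2 class held 61.8% of cells on plate 1 and 87.9% on plate 2 of the control. It held 18.3% and 17.4% of cells on the tumor plates. The median cell of that class held 43.4 CPM (control) and 62 CPM (tumor). Plate 3 taken alone had its valley lower, with 19.4% of cells above it. The upper msl-3 class held 68.5% and 87.9% of control cells and 34.4% and 40.2% of tumor cells. Sxl was not split on either control plate or on plate 3. On plate 4 it was, with 82.6% of the cells in the upper class.

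**Figure D4:**
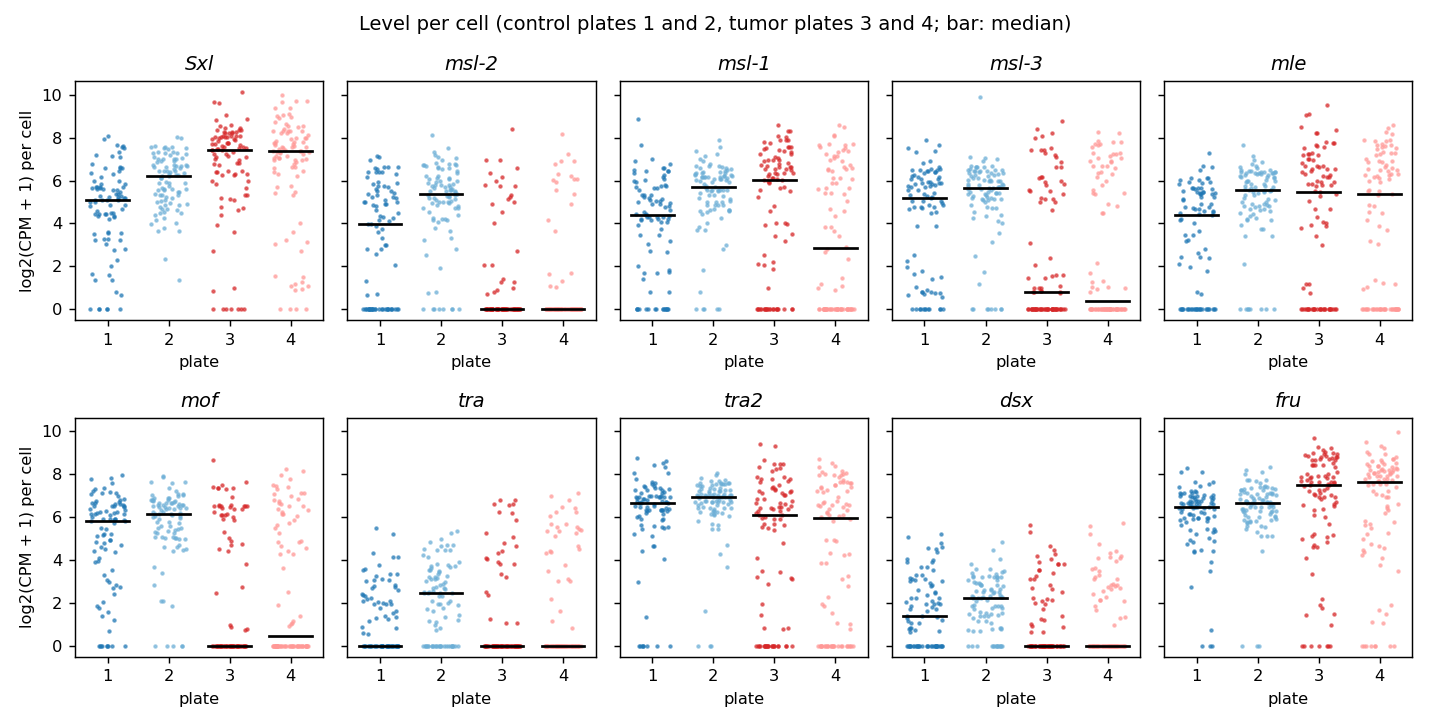
Level of each gene in every cell, as log2(CPM + 1), on control plates 1 and 2 and tumor plates 3 and 4, with the median of each plate as a bar. msl-2 has its median at 0 on both tumor plates, with 18.3% and 17.4% of the cells above the valley of the tumor pool. The Sxl medians are higher on the tumor plates.

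Reads of Sxl and msl-2, whose proteins act in opposite sexes, were not exclusive of each other in single cells. These are RNA reads per gene, which do not show whether a cell made either protein. At equal depth, msl-2 had a read in 53% of the plate 1 cells with a Sxl read and in 69.6% of those without. On plate 2 the share was 83.1% with a Sxl read, and only 2 cells lacked one. On tumor plates 3 and 4 msl-2 had a read in 19% of cells with a Sxl read and in 11.1% and 15.4% of those without. Over all 45 pairs of members, the mean within-plate correlation ran from -0.13 for Sxl and msl-2, the lowest, to 0.22 for msl-2 and mof. No pair reached 0.3, and these are descriptions over cells that share plates and depth.

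The X-linked share of reads, which dosage compensation bears on, did separate control cells. It was taken among reads of genes on chromosomes X, 2, 3 and 4, without the 10 most abundant X-linked genes and without the members. It ran from 10.4% to 15.9% with a median of 12.2% on plate 1, from 11% to 18.2% with a median of 12.7% on plate 2, from 11% to 17% with a median of 14.3% on plate 3 and from 12.1% to 15.7% with a median of 14.2% on plate 4. In bins of 0.25 percentage points, cells of control plates 1 and 2 fell into 2 classes, with 39 of 89 and 41 of 91 cells in the upper one, and those of tumor plates 3 and 4 into 1 class. In bins of 0.5 percentage points no plate was split. The same measure for arms 2L, 2R, 3L and 3R was split on no plate with either bin.

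The cells of each plate were therefore set apart at the plate's median X-linked share, a choice made after these shares were seen, and the members, which were left out of the share, were compared between the upper and lower cells as a description. On control plates 1 and 2, Sxl was at 73.2 and 114.6 CPM in the upper cells and at 25.8 and 54.6 CPM in the lower cells. Likewise tra was at 5.38 and 10.3 CPM in the upper and 2.21 and 4.74 CPM in the lower cells. The reverse held for msl-2, at 20.2 and 35.2 CPM in the upper and 36.5 and 70.2 CPM in the lower cells, and for msl-3, at 35 and 42.6 CPM against 59.1 and 71.5 CPM. Sxl and tra were thus at least 2-fold higher on both control plates, 2 of 9 measured members, against 1.15% of measured features higher and 0.233% lower. Of the 74 features behind the first of these shares, 24 are X-linked.

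Depth and gene number were close between the upper and lower control cells. The medians were 4620 and 4787 genes at equal depth on plate 1, and 5278 and 5381.5 on plate 2. msl-2 had a read in 40.9% (26.3 to 56.8) of upper and 73.3% (58.1 to 85.4) of lower cells on plate 1, and in 66.7% (51 to 80) and 97.8% (88.5 to 99.9) on plate 2. Within-plate correlations with the X-linked share were 0.50 and 0.45 for Sxl, -0.24 and -0.42 for msl-2, -0.19 and -0.38 for msl-3 and 0.21 and 0.17 for tra on plates 1 and 2. mof was lower in the upper cells on both plates, at 38.3 and 67.4 CPM against 83.8 and 81.9 CPM. msl-1, mle, tra2, dsx and fru differed by at most 0.42 on the log2 scale on these plates.

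The tumor plates did not show this relation. Sxl was at 176.8 and 210.3 CPM in the upper cells and at 186.6 and 226.1 CPM in the lower cells of plates 3 and 4. msl-2 was at 21 and 21.1 CPM against 9.55 and 11 CPM, the reverse of its order in control cells. These msl-2 levels rest on few cells, and the intervals of the shares with a read overlapped. At equal depth 10 of 46 upper (10.9% to 36.4%) and 7 of 47 lower cells (6.20% to 28.3%) of plate 3 had a read. On plate 4 these were 11 of 46 (12.6% to 38.8%) and 6 of 46 (4.94% to 26.3%). Here the upper cells gave more genes at equal depth, with medians of 3433 against 3045 on plate 3 and 3259 against 3057 on plate 4. The X-linked share itself varied less on these plates, with the middle 50% of cells between 13.8% and 14.7% on plate 3 and 13.7% and 14.6% on plate 4, against 11.8% and 13.6% on plate 1 and 12.2% and 14% on plate 2. No measured member differed 2-fold on both tumor plates, against 1.74% of measured features higher and 0.589% lower. In both control sets Sxl was below the tumor level: the upper control cells of both plates together were at 94.3 CPM, the lower at 39.8 CPM and the tumor pool at 199.0 CPM. For msl-2 the order was reversed, with 52.9 CPM in the lower control cells, 27.9 CPM in the upper control cells and 15.6 CPM in the tumor pool.

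**Figure D5:**
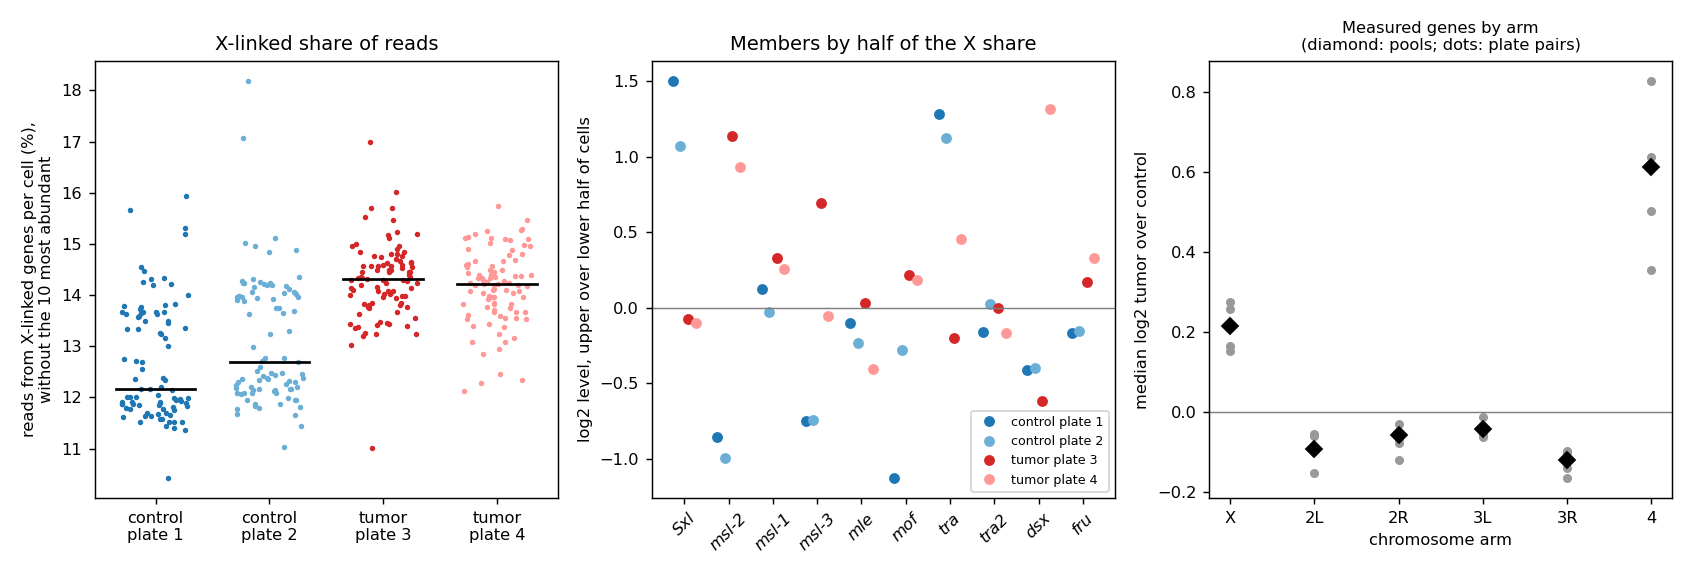
Left, X-linked share of reads per cell (%) by plate, with medians as bars; middle, log2 level of each gene in the upper over the lower cells by that share, per plate; right, median log2 ratio of tumor over control of measured genes per chromosome arm for the pools (diamonds) and the 4 plate pairs (dots). Sxl and tra lie above 0 and msl-2 and msl-3 below 0 on both control plates, and X-linked genes have a median of 0.21.

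X-linked genes as a whole were higher in the tumor pool than genes on the large autosomal arms. The 1091 measured X-linked genes had a median log2 ratio of 0.21, with 0.15 to 0.27 over the plate pairs, and the large arms had medians from -0.12 (3R) to -0.04 (3L). The 54 measured genes of chromosome 4 were higher still, with a median of 0.61 (0.36 to 0.83). With all X-linked genes the pooled X-linked share was 15.8% and 18.6% on the control plates and 18.8% and 17.6% on the tumor plates, which overlapped. Reads of the 39 Y-linked features amounted to 1.81 CPM in control and 1.45 CPM in tumor cells.

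Genes that act with the members were described from lists of known partners, and a call of 1 gene in lists of 4 to 12 measured genes is to be read against the 6.90% of measured features called higher and 7.57% lower. Of the proteins that help the MSL complex find the X chromosome or mark it, Clamp, a zinc finger protein that binds the complex's entry sites, was called higher. It was at 42.1 CPM in the control pool and 3.29-fold higher in the tumor pool, at 138.7 CPM, with plate pairs from 1.12 to 2.70 on the log2 scale. Trl, the GAGA factor, was 2.09-fold higher in the tumor pool (381.4 and 797.6 CPM) and was not called, nor were the kinase gene JIL-1 (140.8 and 222.2 CPM) and the nucleoporin gene Nup153 (61.1 and 71.7 CPM). In the NSL complex, which shares mof, 1 of 6 measured genes was called higher, nsl1 (90.7 and 325.4 CPM), and none lower. The roX RNAs and the partner genes Mtor and Top2 were not analysed here.

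Of the 5 genes by which Sxl represses msl-2, Unr, the RNA-binding cofactor of Sxl on the msl-2 messenger, was called higher. It was at 133.5 and 147.4 CPM on the control plates and 436.6 and 379.9 CPM on the tumor plates, a 2.92-fold difference. The splicing factor gene how, of the same list, was at 23.1 and 58.1 CPM in the pools and was not called. Of 5 measured genes that act on the Sxl promoter, 2 were called higher and none lower. run, an X-linked activator of it in the early embryo, was 8.22-fold higher (67.1 and 551.5 CPM). emc was 2.94-fold higher (246.2 and 723.6 CPM). dpn (1.67-fold), gro (1.33-fold) and her (1.07-fold) were higher in the tumor pool without a call. The list was not separated into activators and repressors of the promoter. Among 12 measured genes for the splicing of Sxl, 1 was called higher, against 6.90% of all measured features, and none lower. It was fl(2)d, a subunit of the m6A writer (156.9 and 373.0 CPM). None of the 4 measured cofactors of Tra and Tra2 or of the 4 measured partners of dsx and fru was called. The 5 genes listed as dsx targets, Yp1, Yp2, Yp3, bab1 and bab2, were under the minimum level and summed to 8.43 CPM in control and 3.32 CPM in tumor cells.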

How the data were processed

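The authors deposited a table of read counts per feature, 1 column per well, whose values are whole numbers and carry no normalization. SMART-Seq2 has no molecular identifiers, so reads are not independent molecules. Per the submitters' processing notes, the genome builds were BDGP6 and dm6. Neither the aligner nor the counting program or its strand setting is named in these sources. Gene symbols, positions and exons came from the Ensembl release 115 annotation. Groups came from the labels' genotypes, and plates from the library numbers and index pairs in the labels. Feature IDs outside the annotation (517) had no position.

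Counts were scaled to CPM over each pool or plate, or per cell. Shares of cells used reads drawn at random to 100000 per cell. Intervals are 95% Poisson or Clopper-Pearson intervals and cover counting error only. Log2 ratios of tumor over control, for the pools and the plate pairs, used a floor of 3 reads. Differences were described by the 2-fold rule, without tests. Every member was named, with every gene of the MSL partner list, called genes of the pathway lists and, per member, up to 3 features with a mean within-plate Spearman correlation of at least 0.3. For mle these were eEF2 (0.36), FBgn0000556 (0.33) and dre4 (0.32), and for mof Fcp1 (0.31) and Men (0.30). The members and lists were chosen with earlier results of these data known. Cells could not be set side by side by their roX RNA level as intended, and the X-linked share was used in its place. Alternatives included TMM scaling (edgeR 4.0.16) and median-of-ratios scaling (DESeq2 1.42.0). Other steps used Python 3.11.15, pandas 2.3.3 and scipy 1.17.1, and were tested on simulated data.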

Additional observations from a re-analysis of the deposited data

Results flagged for a closer look

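In the 7 tumor wells left out for low reads or gene numbers, fru was at 677.0 CPM (49 of 72374 reads, 95% Poisson interval 500.9 to 895.1), above the 197.5 CPM (58 of 293641 reads) of the 12 control wells left out. The signal stood out because it lies in wells outside the main comparisons, which entered only the alternative that kept every well. Reads were found in 4 of the 7 tumor wells, with 19 of the 49 reads in 1 well of 18746 reads. The control reads were also concentrated, in 8 of the 12 wells, with 29 of the 58 reads in 1 well of 15640 reads. Both levels thus rest on few wells, and the Poisson interval does not cover differences between wells.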

How the results depend on the processing

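Over 12 alternatives per gene the log2 ratio of tumor over control kept its sign for 9 of the 10 members, with ranges of 1.25 to 2.06 for Sxl, -2.20 to -0.89 for msl-2 and 1.00 to 1.29 for fru. msl-3 turned to 0.03 without plate 3. Among the type II-like cells alone, with only 8 from the control, the ratio was -2.20 for msl-2, -0.97 for mof, -0.69 for dsx and -0.077 for tra2. There 2 members were called higher and 1 lower, where 487 measured features were higher and 449 lower. Thinning to 100000 reads gave 1 member called lower, where 499 measured features were. Leaving out a plate at a time, which leaves fewer plate pairs, gave 1 to 4 members called higher (4 without plate 2) and 0 to 1 lower (1 without plate 1). It gave 597 to 930 measured features higher and 598 to 913 lower, the most without plate 2, with 794 lower without plate 4. From 2 (without plate 1) to 5 members were then split in control cells, and 7 to 9 in tumor cells. Thinning gave 6 split members in control cells, and bins of 0.5 gave 10 in tumor cells. With no minimum level, 668 features were called higher and 1262 lower. The X-linked share without the 10 most abundant genes was 12.9% in control and 14.2% in tumor cells. The share of measured features split in control cells was 57.4% in bins of 0.5 and 60.5% at equal depth, so the 28.6% above rests on bin and depth. TMM scaling moved the median log2 ratio of all features from -0.001 to 0.06. No test was run between the pools. No paired analysis was possible because the labels pair no plate or brain of the 1 control pool with one of the 1 tumor pool.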
